A study of Mus musculus with 72 samples.

Results

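The 9 features described here are neuron-enriched mature miRNAs other than miR-9 and miR-124, chosen by name from the 1927 mature miRNAs of the deposited count tables: mmu-miR-128-3p, mmu-miR-129-5p, miR-129-3p, mmu-miR-137-3p, mmu-miR-138-5p, mmu-miR-138-2-3p, mmu-miR-153-3p, mmu-miR-153-5p and mmu-miR-218-5p, written below without the species prefix mmu. The name miR-129-3p stands for the 1 feature that pools miR-129-1-3p and miR-129-2-3p. Raw counts come from male mice, from the left side for cortex and striatum and from the right side for cerebellum. The mice were wild type or Thap1+/-, that is, heterozygous for Thap1, a gene for a transcription factor whose human counterpart is mutated in the movement disorder DYT6 dystonia. They were either naive or had undergone a crush of the right sciatic nerve for 1 min at 12 weeks of age, with tissue labelled 12 weeks after injury. The naive mice carry the same time label, and the Thap1 allele and the age of the naive mice are not further described in the labels. Each of the 12 combinations of region, genotype and treatment held 6 libraries, except naive wild-type cortex with 5. The counts hold no column for 1 of the 72 labelled samples, which was therefore not analysed here. RNA came from a different extraction kit for cerebellum than for cortex and striatum, and from the other side of the brain, so kit, side and region cannot be told apart in any comparison with cerebellum. Thap1 mRNA is not among the features counted, so the targeted gene gives no check of the genotype labels.

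MicroRNAs are short RNAs cut from a hairpin precursor, and each arm of the hairpin can yield a mature strand, named 5p or 3p. The mature strand pairs with messenger RNAs mainly through its seed, the bases at positions 2 to 8, and lowers their stability or translation. Neurons carry a characteristic set of such RNAs that accompany their maturation and tune synapses and excitability. miR-128 restrains neuronal excitability in mice, and miR-138 limits the size of dendritic spines in rat hippocampal neurons. miR-137 acts in neuronal differentiation and lies in a human schizophrenia locus, miR-153 represses alpha-synuclein, miR-218 is abundant in motor neurons of mice, and miR-129 takes part in synaptic scaling in rat neurons. In whole tissue, fewer cells of a type and less RNA per cell cannot be told apart.

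The mature sequences below, from RefSeq on mouse build GRCm38.p6, are given 5′ to 3′ with the seed (bases 2 to 8) in capitals, to show that the set is not 1 family. All 9 features matched by name, miR-129-3p through the entry of 1 of its 2 hairpins. That entry is miR-129-2-3p, and miR-129-1-3p is named only.
miR-128-3p: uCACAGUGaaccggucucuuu
miR-129-5p: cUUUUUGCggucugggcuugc
miR-129-2-3p: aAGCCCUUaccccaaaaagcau
miR-137-3p: uUAUUGCUuaagaauacgcguag
miR-138-5p: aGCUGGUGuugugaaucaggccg
miR-138-2-3p: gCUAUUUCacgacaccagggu
miR-153-3p: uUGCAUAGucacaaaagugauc
miR-153-5p: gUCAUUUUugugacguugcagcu
miR-218-5p: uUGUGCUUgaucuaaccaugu
The 9 seeds all differed. The mature strands are 21 to 23 bases long, so counts per miRNA need no length correction. Of the 1927 features, 1660 could be matched by name, and 1 other miRNA carried a member's seed. That was miR-7002-3p, which shares the seed of miR-218-5p and had 0 counts in all 71 libraries.

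The members come from 10 hairpin genes. miR-128-3p is made by Mir128-1 at chr1:128202361-128202430, in an intron of R3hdm1, and by Mir128-2 at chr9:112118636-112118711, in an intron of Arpp21, which encodes a phosphoprotein rich in striatum. miR-218-5p is made by Mir218-1 at chr5:48223942-48224051, in an intron of Slit2, and by Mir218-2 at chr11:35616816-35616925, in an intron of Slit3, both genes of axon guidance ligands. miR-138-5p is made by Mir138-1 at chr9:122682876-122682974 and Mir138-2 at chr8:94324311-94324381, which overlap exons of the noncoding transcripts Gm47135 and C78859. miR-138-2-3p comes from Mir138-2 alone. miR-129-5p is made by Mir129-1 at chr6:29022619-29022691, in an exon of the lincRNA Gm3294, and by Mir129-2 at chr2:94241364-94241453, in an intron of Mir670hg. Both arms of miR-153 come from Mir153 at chr12:117250817-117250885, in an intron of Ptprn2, which encodes a protein of secretory vesicles, and miR-137-3p comes from Mir137 at chr3:118433857-118433929, in an exon of the noncoding Gm26871. Positions are from RefSeq and overlaps from the GENCODE vM21 annotation of the same build, each on the hairpin's strand. Where 2 genes yield 1 mature strand, the counts do not tell them apart.

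Libraries held 7479448 to 12589140 counts, and each of the 9 members had counts in all 71 libraries, from 47 for miR-129-3p in a cerebellum library to 802519 for miR-128-3p in a cortex library. Levels are given as CPM, a library's counts scaled to a common total, after TMM scaling over all 71 libraries, which corrects library totals for the miRNAs that dominate them. The let-7 family with miR-98 took 55.2% of counts on average in naive wild-type cortex against 45.9 to 48.8% in the other cortex groups, and 68.5% in crushed Thap1+/- cerebellum against 58.4 to 61.5% in the other cerebellum groups. The tissue labels were checked against 4 miRNAs reported as cerebellum-rich in rat (miR-206-3p, miR-497a-5p, miR-195a-5p and miR-34a-5p), whose summed level was 23297 to 32884 CPM in cerebellum and at most 10124 CPM elsewhere. Single libraries are named by their column, where CX, STR and CB stand for cortex, striatum and cerebellum and DYT6KO for Thap1+/-. STR_DYT6KO_crush_8 stood apart from its group for 5 members, and CX_DYT6KO_naive_16 and CX_DYT6KO_naive_18 for 2 members each.

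Together the 9 members took 9.66 ± 1.16% of all counts in cortex, 9.03 ± 0.534% in striatum and 2.35 ± 0.340% in cerebellum (mean ± SD over 23, 24 and 24 libraries). The highest cerebellum library, at 2.78%, lay below the lowest library of the other regions, at 7.65%. By level the members fell into 3 tiers. miR-128-3p and miR-138-5p were highest, with means over libraries of 62894 and 17599 CPM in cortex. miR-137-3p, miR-129-5p and miR-218-5p followed at 6523, 2011 and 852 CPM. The lowest were miR-153-3p, miR-153-5p, miR-138-2-3p and miR-129-3p at 190.1, 147, 63.4 and 35.6 CPM.

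**Figure D1:**
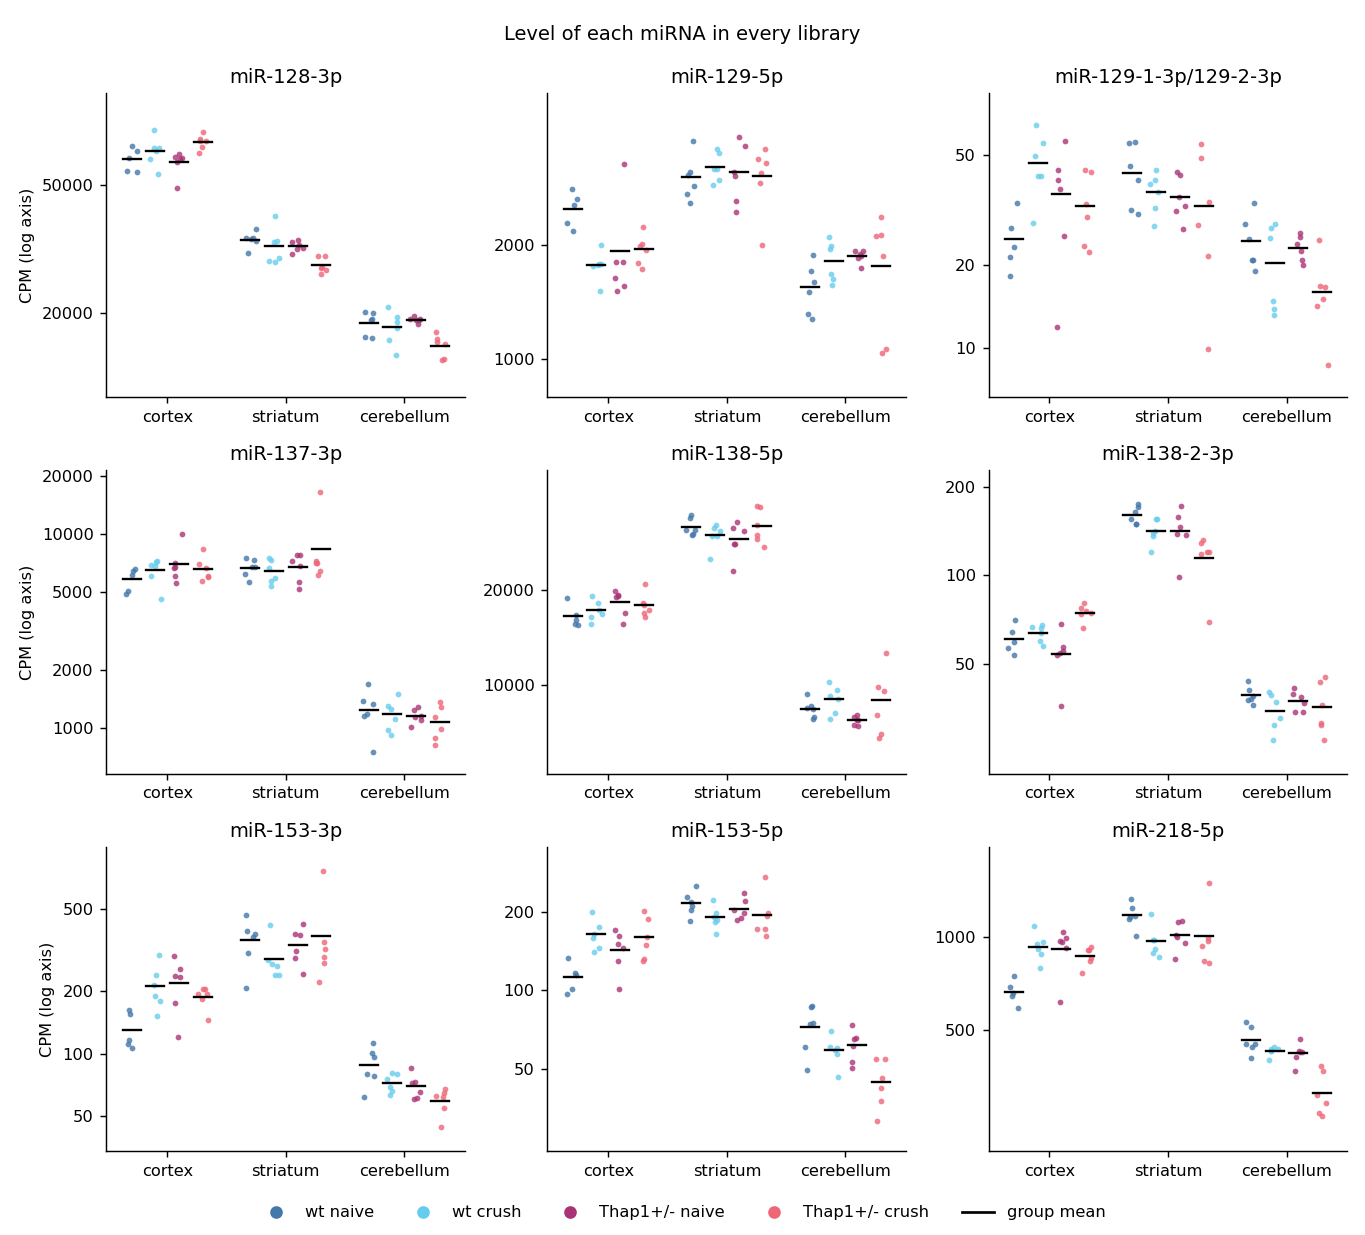
CPM of each of the 9 miRNAs on a log axis, 1 point per library and a line at the mean of each of the 12 groups, by region and coloured by genotype and treatment. All 9 are lowest on average in cerebellum, miR-128-3p is highest in cortex, and miR-137-3p has 1 striatum library at 16369 CPM, far above the rest.

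Regions were compared first in naive wild-type mice and then in the other 3 combinations of genotype and treatment, each in a fit of its own over 535 to 579 miRNAs with edgeR's quasi-likelihood test. All 9 members were lower in cerebellum than in striatum in all 4 combinations, so that 36 of 36 tests passed at an adjusted p of 0.05, in which 37.3%, 36.3%, 34.3% and 30.7% of all tested miRNAs were called lower, in the order naive wild type, crushed wild type, naive Thap1+/- and crushed Thap1+/-. In 32 of the 36, every cerebellum library lay below every striatum library, against 27.5%, 28.9%, 29.0% and 18.9% of all miRNAs. Cerebellum was lower than cortex in 32 of 36 tests and higher in 0, with 28 not overlapping, where 31.3%, 35.6%, 35.6% and 30.1% of all miRNAs were called lower and 21.9%, 25.1%, 19.7% and 24.3% did not overlap. Striatum was higher than cortex in 20 of 36 tests, 13 of them without overlap, and lower in 4, all 4 for miR-128-3p and without overlap. The share of all miRNAs called higher in striatum was 35.8%, 23.6%, 22.7% and 19.1%, and 24.5%, 17.0%, 12.7% and 8.97% did not overlap. Called lower were 18.8%, 23.8%, 21.8% and 15.1%, and 15.9%, 14.3%, 11.8% and 11.0% did not overlap. The median log2 fold change over the members in naive wild type was -1.63 for cerebellum against striatum, -0.66 for cerebellum against cortex and 0.84 for striatum against cortex, beside -0.08, 0.06 and 0.19 over all 579 miRNAs. With library totals as the only scale, the split of all calls in naive wild type moved from 207 higher and 109 lower to 292 and 57 for striatum against cortex, and from 180 and 216 to 111 and 296 for cerebellum against striatum, whose median became -0.55. In the other 3 combinations library totals shifted the calls the same way, to a median of -0.75 to -0.49 in comparisons with cerebellum, and the members were then 0 higher and 9 lower in all 6 of them. With RLE scaling the split for striatum against cortex in naive wild type was 158 higher and 147 lower, with 6 members higher and 1 lower.

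miR-128-3p was the one member with a cortex, striatum, cerebellum order in all 4 combinations. In naive wild type the 5 cortex libraries held 54841, 55427, 60837, 63970.2 and 66409 CPM. The 6 striatum libraries ran from 30828 to 36619 CPM with a median of 34045, and the 6 cerebellum libraries from 16677 to 20179 CPM with a median of 19084. The 3 regions did not overlap. Striatum against cortex gave a log2 fold change of -0.81 ± 0.07 (SE, adjusted p = 1.9e-08), and cerebellum against striatum gave -0.89 ± 0.07 (SE, adjusted p = 6.9e-10). Over the 4 combinations these differences ranged from -1.23 to -0.81 and from -0.89 to -0.78, and the group means spanned 58867 to 68089 CPM in cortex, 28226 to 33891 in striatum and 15837 to 19089 in cerebellum.

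miR-138 was highest in striatum on both arms. For miR-138-5p, naive wild-type striatum ran from 29957 to 34619 CPM with a median of 31087, the 5 cortex libraries held 15569.6, 15687, 16141, 16668 and 18916 CPM, and cerebellum ran from 7835 to 9402 CPM with a median of 8429. No 2 regions overlapped. Its log2 fold change was 0.96 ± 0.06 (SE, adjusted p = 5.4e-10) for striatum against cortex and -0.99 ± 0.06 (SE, adjusted p = 7.9e-11) for cerebellum against cortex. The other arm, miR-138-2-3p, ran from 149 to 176 CPM with a median of 160.3 in striatum, held 53.5, 56.6, 59.1, 64.3 and 70.4 CPM in cortex and ran from 36.0 to 43.5 CPM with a median of 38.5 in cerebellum. The difference between striatum and cortex was 1.42 ± 0.08 (SE, adjusted p = 7.5e-11) for this arm. Both arms passed in all 4 combinations in each of the 3 region pairs, and group means of miR-138-5p spanned 29132 to 32124 CPM in striatum, 16596 to 18343 in cortex and 7741 to 9036 in cerebellum. In crushed Thap1+/- mice the miR-138-2-3p libraries of striatum and cortex overlapped, with STR_DYT6KO_crush_8 at 69.2 CPM.

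miR-137-3p had the largest fall in cerebellum among the 9 members in naive wild type. Its 5 cortex libraries held 4899.9, 5086, 6138, 6441 and 6620.4 CPM, the 6 striatum libraries ran from 5687 to 7532 CPM with a median of 6758, and the 6 cerebellum libraries from 754 to 1677 CPM with a median of 1253. Cortex and striatum overlapped and cerebellum lay below both. Cerebellum against cortex gave -2.25 ± 0.15 (SE, adjusted p = 1.2e-10) and cerebellum against striatum -2.48 ± 0.14 (SE, adjusted p = 1.4e-11) on the log2 scale. Striatum against cortex gave 0.23 ± 0.14 (SE, adjusted p = 0.18) and did not pass in any of the 4 combinations, where the estimates ran from -0.04 to 0.36. With library totals as the only scale it passed in naive wild type, at 0.56 (edgeR, adjusted p = 0.00592) beside a median of 0.52 over all miRNAs. It then also passed in crushed Thap1+/-, at 0.43 (edgeR, adjusted p = 0.0465) beside a median of 0.13. The group means spanned 5837 to 7026 CPM in cortex, 6446 to 8384 in striatum and 1079 to 1243 in cerebellum.

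Both arms of miR-153 were highest in striatum and lowest in cerebellum. For miR-153-3p the naive wild-type striatum libraries ran from 207 to 469 CPM with a median of 372, the cortex libraries held 107, 112, 116, 156 and 162 CPM, and the cerebellum libraries ran from 61.5 to 113 CPM with a median of 88.3. Striatum lay above cortex without overlap, by 1.47 ± 0.20 (SE, adjusted p = 3.9e-06) on the log2 scale, while cortex and cerebellum overlapped at a difference of -0.57 ± 0.19 (SE, adjusted p = 0.0125). miR-153-5p ran from 186 to 252 CPM with a median of 215 in striatum, held 97.0, 101, 115, 117 and 133 CPM in cortex and ran from 49.6 to 86.8 CPM with a median of 74.6 in cerebellum, with no overlap between regions. Its striatum excess over cortex was 0.98 ± 0.13 (SE, adjusted p = 3.7e-06) in naive wild type and 0.54 ± 0.12 (SE, adjusted p = 8.5e-04) in naive Thap1+/-. After crush it was 0.24 ± 0.10 (SE, adjusted p = 0.0525) in wild type and 0.31 ± 0.15 (SE, adjusted p = 0.123) in Thap1+/-, and neither passed in these fits. With the column number as a replicate block the former did pass (adjusted p = 0.0264, edgeR), and differences between the combinations were not tested. The excess of miR-153-3p passed in all 4 combinations, from 0.44 to 1.47. In crushed wild type that call was lost without CX_wt_crush_11 (log2 fold change 0.33, adjusted p = 0.059).

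miR-218-5p was lower in cerebellum than in either other region in all 4 combinations. In naive wild type its 6 striatum libraries ran from 1005 to 1322 CPM with a median of 1163, the 5 cortex libraries held 589.7, 644, 657, 688 and 749 CPM, and the 6 cerebellum libraries ran from 406 to 531 CPM with a median of 450.4. The regions did not overlap. Cerebellum against cortex gave -0.53 ± 0.09 (SE, adjusted p = 3.0e-05) and striatum against cortex 0.84 ± 0.09 (SE, adjusted p = 2.6e-07) on the log2 scale. The excess in striatum passed in naive wild type alone, with estimates of 0.07, 0.16 and 0.25 in crushed wild type, naive Thap1+/- and crushed Thap1+/-. With library totals as the only scale it also passed in naive Thap1+/-, at 0.36 (edgeR, adjusted p = 0.0211) beside a median of 0.20 over all miRNAs. The group means in cortex spanned 666 to 930.0 CPM, with naive wild type lowest. Whether the region difference itself differs between the combinations was not tested.

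The arms of miR-129 were both lower in cerebellum than in striatum, and their other region differences were called in some combinations and not in others. Whether any of these differences differs between combinations was not tested. miR-129-5p ran from 2577 to 3739 CPM with a median of 2950.4 in naive wild-type striatum, held 2166, 2280.4, 2545, 2629 and 2798 CPM in cortex and ran from 1275 to 1875 CPM with a median of 1550.3 in cerebellum. Cerebellum lay below cortex without overlap in naive wild type, at -0.69 ± 0.11 (SE, adjusted p = 2.9e-05) on the log2 scale. In the other 3 combinations the same difference was 0.04 ± 0.08, -0.06 ± 0.16 and -0.07 ± 0.20 and did not pass. With library totals as the only scale the median of all miRNAs in these comparisons was -0.64, -0.49 and -0.69, with 297, 276 and 276 called lower. The difference of miR-129-5p was then -0.55, -0.44 and -0.84 and passed in all 3, so the missing calls depend on the scaling. Striatum exceeded cortex in all 4 combinations, but in naive wild type at only 0.29 ± 0.12 (SE, adjusted p = 0.0392), near the median of all miRNAs of 0.19, and that call was lost in 7 of 11 fits with 1 library left out (all but those without STR_wt_naive_96, STR_wt_naive_124, STR_wt_naive_136 and CX_wt_naive_31). That naive wild-type call was also lost with RLE scaling (0.13, edgeR adjusted p = 0.38) and with DESeq2 (0.13, adjusted p = 0.41). A stricter filter gave 0.18 (edgeR, adjusted p = 0.187), and removal of let-7 and miR-98 gave 0.27 (edgeR, adjusted p = 0.0667). All 12 groups in 1 fit gave 0.28 (edgeR, adjusted p = 0.146). miR-129-3p was the scarcest member. It held 18.2, 21.4, 23.2, 27.3 and 33.7 CPM in naive wild-type cortex, and ran from 30.7 to 55.8 CPM with a median of 43.1 in striatum and from 19.1 to 33.4 CPM with a median of 22.8 in cerebellum. Striatum exceeded cortex in naive wild type, at 0.81 ± 0.19 (SE, adjusted p = 0.0015) with overlapping libraries, and this difference did not pass in the other 3 combinations. Cerebellum against cortex gave -0.03 ± 0.19 (SE, adjusted p = 0.909) in naive wild type and passed as lower in the other 3. In naive Thap1+/- that call, -0.65 ± 0.25 (SE, adjusted p = 0.0257), was lost without any of CX_DYT6KO_naive_48, CX_DYT6KO_naive_63, CX_DYT6KO_naive_135, CB_DYT6KO_naive_16 and CB_DYT6KO_naive_48, at an adjusted p of up to 0.0936. Its call against striatum there, -0.64 ± 0.24 (SE, adjusted p = 0.0276), was lost without STR_DYT6KO_naive_18, STR_DYT6KO_naive_135, CB_DYT6KO_naive_16 or CB_DYT6KO_naive_48, at up to 0.0729.

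**Figure D2:**
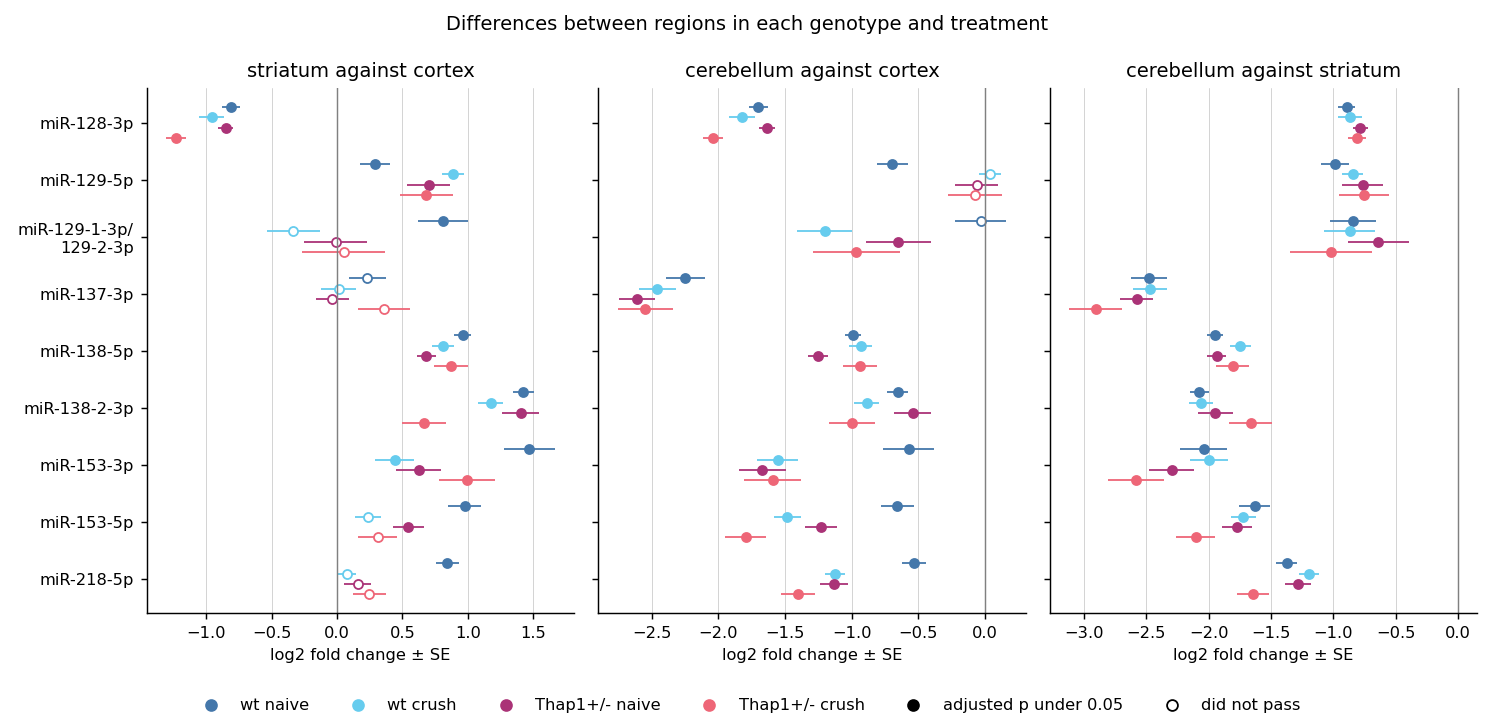
Log2 fold change with its standard error for each of the 9 miRNAs in the 3 region pairs, 1 colour per combination of genotype and treatment, filled where the adjusted p was under 0.05. All 36 points for cerebellum against striatum are filled and below 0, and miR-128-3p is the one miRNA below 0 in striatum against cortex in all 4 combinations.

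In naive wild type the other neuron-enriched miRNAs, both arms of miR-9 and miR-124, had the opposite sign in comparisons with cerebellum. In naive wild type all 4 were higher in cerebellum than in striatum, by 1.07 ± 0.10 for miR-124-3p, 0.97 ± 0.07 for miR-9-3p, 0.72 ± 0.12 for miR-124-5p and 0.64 ± 0.07 for miR-9-5p on the log2 scale, with adjusted p-values of at most 2.6e-05 by edgeR's quasi-likelihood test. All 4 were also higher in cerebellum than in cortex there, where 8 of the 9 members were lower. The other combinations did not all show this. Against striatum, 4 of the 4 passed as higher in crushed wild type, 4 in naive Thap1+/- and 2, miR-124-3p and miR-9-3p, in crushed Thap1+/-, where RLE scaling gave 4, DESeq2 4 and removal of let-7 and miR-98 3. Against cortex 3, 2 and 1 passed as higher and 0 as lower, and in crushed Thap1+/- the estimates of miR-124-5p, miR-9-3p and miR-9-5p were below 0, at -0.39, -0.22 and -0.14, and were not called. The signs also depended on the scaling. With library totals 4 of the 4 were higher in cerebellum than in cortex in naive wild type and 0, 0 and 0 in the other combinations, in the order above, where 3, 0 and 3 were lower, and against striatum 3, 3, 2 and 1 were higher and 0, 0, 0 and 1 lower. miR-128-3p and miR-124-3p, counted in the same library, stood in a ratio of 4.73 ± 0.932 in cortex, 3.63 ± 0.608 in striatum and 0.904 ± 0.227 in cerebellum (mean ± SD over 23, 24 and 24 libraries). That ratio does not depend on scaling. Oligodendrocyte miRNAs (miR-219a-2-3p, miR-219a-5p, miR-338-3p and miR-338-5p) summed to 1867 to 2315 CPM in naive wild-type cortex, 2313 to 4175 CPM in striatum and 3811 to 5662 CPM in cerebellum, with none of the 4 at 0 in every library. The choroid plexus pair miR-204-5p and miR-211-5p summed to 68.7 to 85.6 CPM, 56.6 to 72.2 CPM and 419 to 685 CPM, and 1 of the 2 was at 0 in every naive wild-type cerebellum library. Their part in the region differences was not tested.

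Within cortex the first questions were what a past nerve crush and what Thap1 heterozygosity change. In wild-type mice 5 of the 9 members passed for crush against naive with edgeR's quasi-likelihood test, 4 higher and 1 lower, where 35.0% of the 549 tested miRNAs passed, 21.1% higher and 13.8% lower. In naive mice 3 members passed for Thap1+/- against wild type, 2 higher and 1 lower, against 20.2% of all, 12.8% higher and 7.47% lower. In that comparison 0 members were free of overlap, against 0.546% of all miRNAs higher and 0.546% lower. Both comparisons use the same 5 naive wild-type libraries. With library totals as the only scale, the members split into 8 higher and 0 lower for crush and 5 higher and 0 lower for genotype. All calls moved likewise, from 116 higher and 76 lower to 225 and 15 for crush, and from 70 and 41 to 142 and 7 for genotype, with the median of all miRNAs shifted to 0.36 and 0.20. Removal of let-7 and miR-98 gave 80 higher and 18 lower for genotype, with 2 members higher and 0 lower.

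miR-218-5p and miR-153 rose. The 5 naive wild-type cortex libraries, at 589.7, 644, 657, 688 and 749 CPM of miR-218-5p, all lay below the 6 crushed wild-type libraries, which ran from 792 to 1082 CPM with a median of 930.3. Naive Thap1+/- cortex ran from 615 to 1032 CPM with a median of 964, with 5 of 6 libraries above the wild-type mean and CX_DYT6KO_naive_18 lowest. The log2 fold change was 0.45 ± 0.10 (SE, adjusted p = 0.00272) for crush in wild type and 0.40 ± 0.10 (SE, adjusted p = 0.0128) for genotype in naive mice. For miR-153-3p, naive wild type held 107, 112, 116, 156 and 162 CPM, crushed wild type ran from 152 to 299 CPM with a median of 202 and naive Thap1+/- from 120.2 to 297 CPM with a median of 236, and the groups overlapped. Its changes were 0.67 ± 0.19 (SE, adjusted p = 0.009) and 0.70 ± 0.19 (SE, adjusted p = 0.0157). miR-153-5p held 97.0, 101, 115, 117 and 133 CPM in naive and ran from 141 to 200.4 CPM with a median of 162 in crushed wild type, without overlap, a change of 0.52 ± 0.13 (SE, adjusted p = 0.00542), and its genotype difference of 0.30 ± 0.13 (SE, adjusted p = 0.104) did not pass. Of all 549 miRNAs, 14.2% were higher without overlap after crush in wild type. In a fit of the 2 naive groups alone, the genotype calls of miR-218-5p and miR-153-3p were lost, both at an adjusted p of 0.0614.

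The arms of miR-129 moved in opposite directions. miR-129-5p held 2166, 2280.4, 2545, 2629 and 2798 CPM in naive wild-type cortex, all above the crushed wild-type libraries at 1514 to 1992 CPM with a median of 1773, a log2 change of -0.52 ± 0.15 (SE, adjusted p = 0.00942). Lower without overlap in that comparison were 7.10% of all miRNAs. miR-129-3p held 18.2, 21.4, 23.2, 27.3 and 33.7 CPM in naive and ran from 28.3 to 64.5 CPM with a median of 45.9 in crushed wild type, with overlap, a change of 0.89 ± 0.28 (SE, adjusted p = 0.0198). Without CX_wt_naive_124 this call was lost (adjusted p = 0.0532). With library totals as the only scale the fall of miR-129-5p was -0.22 and did not pass (adjusted p = 0.17). In naive Thap1+/- cortex miR-129-5p ran from 1515 to 3267 CPM with a median of 1718, the highest being CX_DYT6KO_naive_18, and its genotype difference of -0.41 ± 0.15 (SE, adjusted p = 0.0499) was lost in 9 of 11 fits with 1 library left out, all but those without CX_DYT6KO_naive_18 and CX_wt_naive_118, at an adjusted p of up to 0.116. miR-129-3p ran from 11.9 to 56.3 CPM with a median of 39.1 there and did not pass for genotype, at 0.48 ± 0.28 (SE, adjusted p = 0.223). Without CX_DYT6KO_naive_16 and CX_DYT6KO_naive_18 it did, at 0.79 (adjusted p = 0.00968), and the count of members called for genotype became 6, with 4 up and 2 down. Calls over all miRNAs rose as well, from 70 higher and 41 lower to 127 and 98. After removal of let-7 and miR-98 the miR-129-5p call was lost, at -0.37 (adjusted p = 0.0742).

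The other 4 cortex members were not called. miR-128-3p, miR-137-3p, miR-138-5p and miR-138-2-3p did not pass for crush in wild type, with estimates from 0.03 to 0.13, nor for genotype in naive mice, with estimates from -0.22 to 0.22. Beside these differences, 3 of 3 astrocyte miRNAs (the miR-29 family) passed as higher in both comparisons. Their summed level was 27994 to 41959 CPM in naive wild type, 41318 to 57219 CPM in crushed wild type and 29399 to 59229 CPM in naive Thap1+/-. Of 5 microglia and leukocyte miRNAs, 2 were higher and 1 lower for crush and 3 higher and 1 lower for genotype, with summed levels of 182 to 233 CPM, 231 to 374 CPM and 193 to 309 CPM. None of these 8 was at 0 in every library of a group. The 4 vessel miRNAs summed to 36431 to 45033 CPM in naive wild type, 29757 to 35099 CPM in crushed wild type and 33303 to 44707 CPM in naive Thap1+/-, without overlap for crush, and 1 was higher and 1 lower for crush and 0 higher and 1 lower for genotype. The choroid plexus pair summed to 68.7 to 85.6 CPM in naive wild type, 89.6 to 113 CPM in crushed wild type and 37.8 to 109 CPM in naive Thap1+/-, again without overlap for crush, and the 1 of them that could be tested was called in neither comparison. In the neuron list miR-124-5p was higher for crush, by 0.79 ± 0.16 (SE, adjusted p = 0.0012) without overlap, and for genotype, by 0.58 ± 0.16 (SE, adjusted p = 0.0195) with overlap. miR-9-3p was higher for crush, by 0.28 ± 0.09 (SE, adjusted p = 0.0231). Of the 4 oligodendrocyte miRNAs 1 was higher for crush and 0 for genotype, and of the 3 red cell miRNAs tested 0 and 0 were called, 1 of the 4 in that list being at 0 in every naive wild-type library. The part of these lists, and of the higher let-7 share of naive wild-type cortex, was not tested.

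After crush, no member passed for Thap1+/- against wild type in cortex with edgeR (0 of 9, 1 at an unadjusted p under 0.05, 0 with DESeq2), where 0% of the 549 miRNAs passed, and 0 members were free of overlap, against 0.182% of all higher and 0.546% lower. Crush against naive in Thap1+/- cortex gave 1 call, miR-138-2-3p, where 0.729% passed. It ran from 35.8 to 68.5 CPM with a median of 54.8 in naive and from 66.1 to 80.2 CPM with a median of 74.8 in crushed Thap1+/- mice, overlapping, with a change of 0.49 ± 0.11 (SE, adjusted p = 0.047). That call held only in the 4 fits without CX_DYT6KO_crush_133, CX_DYT6KO_naive_16, CX_DYT6KO_naive_18 or CX_DYT6KO_naive_48 of 12 that left out 1 library, with an adjusted p of up to 0.116 in the others. miR-128-3p ran from 48897 to 62624 CPM with a median of 60746 in naive and from 62828 to 73082 CPM with a median of 68637 in crushed Thap1+/- mice, higher without overlap like 0.364% of all miRNAs, yet its change of 0.23 ± 0.07 (SE, adjusted p = 0.159) did not pass.

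Whether crush acted differently in the 2 genotypes was tested in cortex as an interaction. It passed for 2 members, both negative, where 13.5% of all miRNAs passed, 5.65% positive and 7.83% negative. For miR-153-3p the crush effect was 0.67 ± 0.19 in wild type and -0.21 ± 0.18 in Thap1+/-, a difference of -0.88 ± 0.26 (SE, adjusted p = 0.0275) with edgeR's quasi-likelihood test. For miR-218-5p the effects were 0.45 ± 0.10 and -0.05 ± 0.10, a difference of -0.51 ± 0.14 (SE, adjusted p = 0.0236). miR-129-5p, at 0.56 ± 0.20 (SE, adjusted p = 0.0634), and miR-129-3p, with an adjusted p of 0.0778, did not pass. The miR-153-3p call was lost without any of CX_wt_naive_31, CX_wt_naive_67, CX_wt_naive_96, CX_DYT6KO_naive_63, CX_DYT6KO_naive_76 and CX_DYT6KO_crush_86, at an adjusted p of up to 0.055, and the miR-218-5p call without CX_DYT6KO_naive_63, at 0.0583. The count was 5 without CX_DYT6KO_naive_18, 4 without CX_DYT6KO_naive_16, and 5 without both, with 2 positive and 3 negative. Calls over all miRNAs without both libraries also rose, from 31 positive and 43 negative to 86 and 121. With library totals alone as the scale the members' count was 6, all negative. Over all miRNAs 156 of 166 calls were then negative, against 43 of 74 with TMM, and the median of all miRNAs became -0.35. Removal of let-7 and miR-98 gave 13 positive and 50 negative calls over all miRNAs, with the members' count at 2.

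In striatum no member passed in any of the 5 comparisons with edgeR, nor with DESeq2. Unadjusted p-values under 0.05 were found for 0 members for genotype in naive mice, 2 for genotype after crush, 1 for crush in wild type, 2 for crush in Thap1+/- and 0 for the interaction. The share of the 575 tested miRNAs that passed was 0%, 0%, 0.174%, 0% and 0% in the same order. The smallest unadjusted p belonged to miR-128-3p for crush in Thap1+/-. Its naive libraries ran from 30479.8 to 33663 CPM with a median of 32308 and all lay above the crushed ones, which ran from 26442 to 30207 CPM with a median of 27690.2, at a difference of -0.21 ± 0.07 (SE, adjusted p = 0.283), and 0.522% of all miRNAs were lower without overlap. miR-137-3p averaged 8384 ± 3936 CPM (SD, n = 6) in crushed Thap1+/- striatum, where STR_DYT6KO_crush_8 held 16369 CPM and the other 5 at most 7247, and 6759.8 ± 1108 CPM (SD, n = 6) in naive Thap1+/-. Leaving out any 1 library gave no call in these 5 comparisons. The lowest and highest of the 45 estimates were -0.31 and 0.39.

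In cerebellum miR-218-5p and miR-153-5p were lower in crushed Thap1+/- mice. The 6 crushed Thap1+/- libraries ran from 265 to 383 CPM with a median of 299.7 of miR-218-5p, all below the 6 crushed wild-type libraries, which ran from 399.6 to 439 CPM with a median of 431. Naive Thap1+/- cerebellum ran from 369 to 466 CPM with a median of 425 and overlapped with the crushed group. The log2 fold change was -0.42 ± 0.08 (SE, adjusted p = 0.00128) for genotype after crush and -0.40 ± 0.08 (SE, adjusted p = 0.00254) for crush in Thap1+/-. miR-153-5p ran from 31.4 to 54.6 CPM with a median of 44.2 in crushed Thap1+/-, from 46.3 to 70.1 CPM with a median of 59.7 in crushed wild type and from 50.4 to 73.7 CPM with a median of 63.1 in naive Thap1+/-, with overlap, and its changes were -0.39 ± 0.13 (SE, adjusted p = 0.0463) and -0.45 ± 0.13 (SE, adjusted p = 0.0445). These 2 members were the ones called, both lower, where 13.4% of the 552 tested miRNAs passed for genotype after crush, 9.06% lower, and 5.25% for crush in Thap1+/-, 3.99% lower. Lower without overlap were 2.90% and 2.17%.

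The miR-218-5p calls held with any 1 library left out and were lost in fits of the 2 groups alone (adjusted p = 0.0695 and 0.0672). In crushed Thap1+/- cerebellum, let-7 with miR-98 took 75.7% and 74.2% of counts in CB_DYT6KO_crush_47 and CB_DYT6KO_crush_86. The rest of the group held 61.2 to 67.5%. In these libraries 586 and 593 miRNAs were detected, against 628 to 662 in the rest. A fit without both was not run. The miR-153-5p call for genotype held only without CB_DYT6KO_crush_117 or CB_DYT6KO_crush_133, and that for crush only without one of these or CB_DYT6KO_naive_48, with adjusted p-values of up to 0.205 and 0.17 otherwise. miR-128-3p ran from 18532 to 19626 CPM with a median of 19115 in naive and from 14267 to 17455 CPM with a median of 16147 in crushed Thap1+/- without overlap, a difference of -0.24 ± 0.08 (SE, adjusted p = 0.0742) that did not pass with edgeR and passed with DESeq2 (adjusted p = 0.0478). miR-9-3p and miR-9-5p also fell, with log2 fold changes of -0.43 ± 0.08 and -0.44 ± 0.09 for genotype after crush. The neuron list of miR-9 and miR-124 summed to 57365 to 124147 CPM in crushed Thap1+/- cerebellum and to 75711 to 101512 CPM in crushed wild type, the highest library holding miR-124-3p at 71138 CPM. For genotype after crush, 2 of the 3 astrocyte miRNAs were lower, with summed levels of 19060.1 to 28527 CPM in crushed Thap1+/- against 28294 to 35579 CPM in crushed wild type and none of the 3 at 0. miR-124-5p was also lower, and so were 2 of the 4 vessel miRNAs, whose sums overlapped at 29981 to 36059 CPM and 30164 to 36599 CPM. The part of these lists, and of the let-7 share of this group, was not tested. With library totals alone as the scale the calls over all miRNAs split into 3 higher and 35 lower instead of 24 and 50 for genotype after crush, and into 3 and 36 instead of 7 and 22 for crush in Thap1+/-. RLE scaling gave 26 and 26, and 20 and 18, with miR-218-5p the 1 member called in each, and removal of let-7 and miR-98 gave 23 and 23, and 12 and 14. DESeq2 gave 36 and 42, and 40 and 27.

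No member passed in cerebellum for genotype in naive mice (1 at an unadjusted p under 0.05), for crush in wild type (2) or for the interaction (1) with edgeR, where 0%, 0% and 0% of all miRNAs passed, nor with DESeq2, where 0%, 0% and 0.108% did. For genotype in naive mice 0 members were free of overlap, against 1.09% of all higher and 0.181% lower. The interaction of miR-218-5p was -0.29 ± 0.11 (SE, adjusted p = 0.425), so its change after crush in Thap1+/- mice was not shown to differ from that in wild type, -0.11 ± 0.08. miR-153-3p, the other arm of the same hairpin as miR-153-5p, was -0.26 ± 0.13 (SE, adjusted p = 0.187) for genotype after crush and -0.20 ± 0.13 (SE, adjusted p = 0.383) for crush in Thap1+/-.

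**Figure D3:**
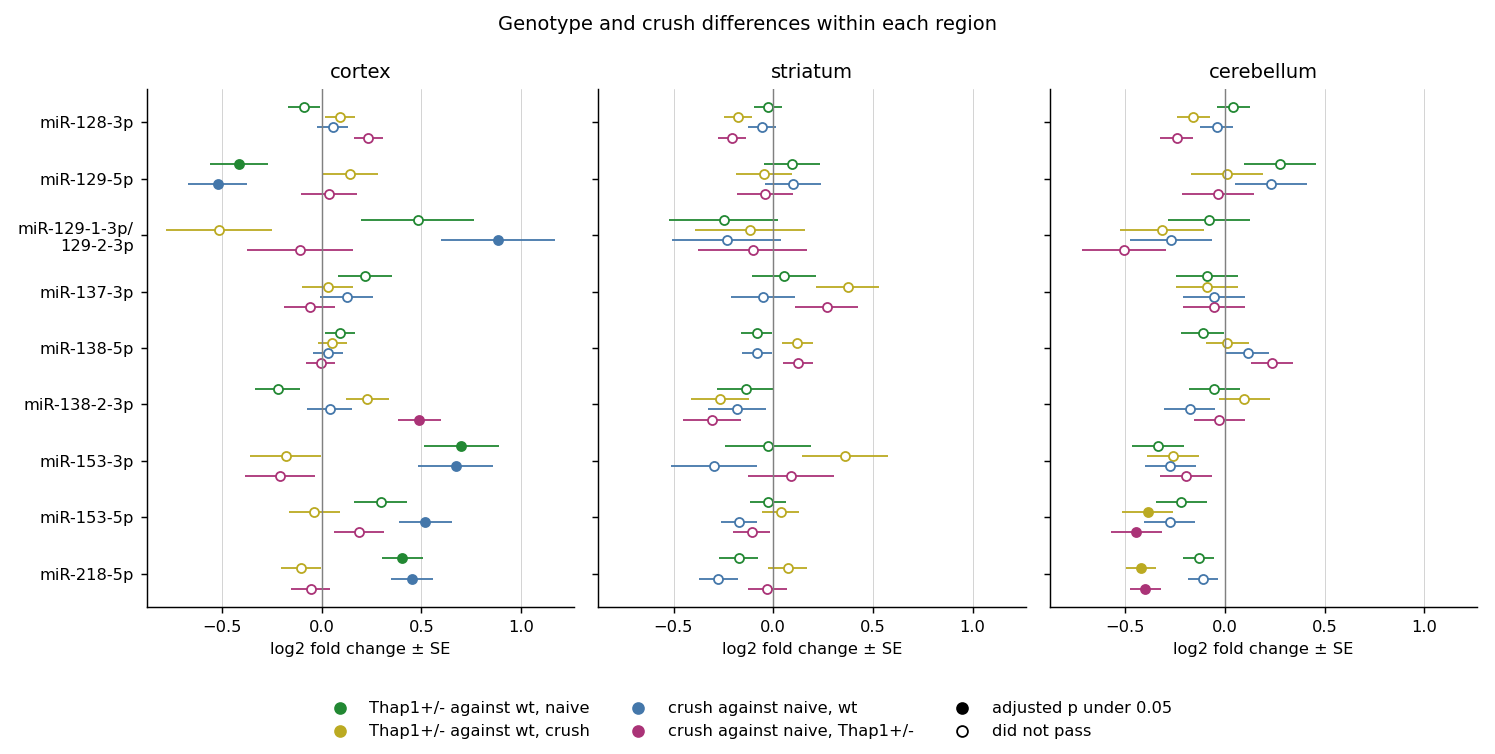
Log2 fold change with its standard error for each of the 9 miRNAs in the 4 comparisons within each region, filled where the adjusted p was under 0.05. Cortex holds 9 filled points, of which 8 come from comparisons with the 5 naive wild-type libraries, striatum 0, and cerebellum 4, all for miR-153-5p and miR-218-5p.

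The ratio of both arms within a library is free of scaling, though miR-129-5p, miR-129-3p and miR-138-5p each pool 2 hairpins, and was compared by an exact two-sided permutation test of its log2 mean, adjusted over 45 tests. The smallest p that 6 against 6 or 5 against 6 libraries allow is 0.00216. miR-129-5p over miR-129-3p ran from 75.6 to 123 with a median of 119 in naive wild-type cortex and from 27.4 to 53.4 with a median of 39.1 after crush, without overlap. This was the 1 of 36 ratio tests within a region to pass, at a log2 difference of -1.40 (exact permutation p = 0.00216, adjusted p = 0.0325). The ratio ran from 32.0 to 128 with a median of 42.8 in naive Thap1+/- cortex and from 40.5 to 90.3 with a median of 66.5 in crushed Thap1+/- cortex. miR-138-5p over miR-138-2-3p ran from 237 to 353 with a median of 263 in naive wild-type cortex, from 177 to 210.4 with a median of 199 in striatum and from 195 to 235 with a median of 218 in cerebellum. Striatum and cerebellum both lay below cortex without overlap, with differences of -0.47 and -0.34 on the log2 scale (exact permutation, adjusted p = 0.0325 for both). miR-153-3p and miR-153-5p, made from 1 hairpin, had group means of their ratio from 1.14 to 1.82, and none of its 15 tests passed. In all, 3 of 45 tests passed and 16 had an unadjusted exact p under 0.05. Without any 1 of the 5 naive wild-type cortex libraries 0 passed, and without STR_DYT6KO_crush_133 5 did. Without any 1 of the 6 crushed wild-type cortex libraries, of the naive wild-type striatum libraries other than STR_wt_naive_31, or of the 6 naive wild-type cerebellum libraries, 2 passed. Smaller groups also raise the smallest p that the test can give.

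The miRNAs most like each member were sought among 146 miRNAs outside the set with a mean of at least 100 CPM. Likeness was measured over the 12 group means, by the root mean square difference of log2 CPM after centring each on its own mean. The nearest to miR-128-3p were miR-873a-5p (0.136) and miR-335-5p (0.285). For miR-129-5p they were miR-433-5p (0.123) and miR-672-5p (0.160), and for miR-129-3p miR-487b-3p (0.164) and miR-369-3p (0.166). miR-137-3p was nearest to miR-31-5p (0.264) and miR-409-5p (0.334). miR-138-5p was nearest to miR-1983 (0.150) and miR-337-5p (0.166), and miR-138-2-3p to miR-431-5p (0.223) and miR-323-3p (0.267). The nearest of miR-153-3p were miR-409-5p (0.345) and miR-1983 (0.345), and of miR-153-5p miR-1983 (0.223) and miR-409-5p (0.249). miR-218-5p was nearest to miR-22-3p (0.161) and miR-376b-3p (0.173). Of these 18, 13 were also found after removing let-7 and miR-98. That search ran over 177 miRNAs, so its nearest ones may not have been among the 146. Among the members themselves the nearest pair was miR-153-5p with miR-218-5p (0.189), both arms of miR-138 lay 0.227 apart and both arms of miR-153 0.228. The arms of miR-129 lay 0.425 apart, and miR-129-5p and miR-137-3p were the farthest pair (0.996). All 12 means share libraries across miRNAs, so these distances are a description.

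The authors' deposited tables hold their own DESeq2 results for the 12 genotype and crush comparisons. In the authors' deposited tables the members with an adjusted p under 0.05 were the same 5 for crush in wild-type cortex, the same 3 for genotype in naive cortex and miR-138-2-3p for crush in Thap1+/- cortex. For cerebellum the authors' deposited tables list miR-218-5p for genotype after crush, and miR-128-3p, miR-153-5p and miR-218-5p for crush in Thap1+/-. In the authors' deposited tables no member passed in striatum.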

How the data were processed

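Small-RNA libraries were made from 10 ng of enriched miRNA with a QIAseq kit, which is built with molecular identifiers, per the labels' protocols. Reads were counted with featureCounts 1.6.4 and analysed in R 4.1.0, per the submitters' processing notes. Aligner, genome build and collapsing of identifiers are, in the sources used here, not given. The deposited tables hold raw counts for 1927 mature miRNAs, beside the authors' log2 fold changes and adjusted p-values from DESeq2. In all, 284 other columns of per-sample values were not used. No duplicate library was found: the least different pair within a group had a chi-square of 10.9 per degree of freedom.

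Raw counts were fitted with edgeR 4.0.16 (TMM, filterByExpr, quasi-likelihood test, limma 3.58.1, R 4.3.3), 1 fit per region over its 4 groups and 1 per combination of genotype and treatment over the 3 regions. P-values were adjusted by Benjamini-Hochberg over all miRNAs tested and called under 0.05, and all 9 members passed the low-count filter in every fit. The script was tested on simulated data. Alternatives were RLE scaling, library totals, no or a stricter filter (10 CPM), DESeq2 1.42.0, removal of let-7 and miR-98, fewer or more groups, a replicate block and leaving out libraries. Levels are CPM, computed here from the deposited counts with TMM factors over 71 libraries. Python 3.11.15, pandas 2.3.3, numpy 2.4.6, scipy 1.17.1 and matplotlib 3.10.9 were used for the rest. All members were named, with their 2 nearest miRNAs by pattern, the arms of miR-9 and miR-124 and any miRNA with a member's seed. Members and lists were chosen with earlier results of these data known. The labels number biological replicates without naming animals, so p-values measure the spread between these libraries.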

Additional observations from a re-analysis of the deposited data

Results flagged for a closer look

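In 16 of 144 groups of levels or arm ratios, 1 library lay far from the rest, where chance alone flags about 1 in 20 groups. Of these, 6 came from STR_DYT6KO_crush_8. It held 16369 CPM of miR-137-3p against 6126 to 7247 in the rest of its group, 761 CPM of miR-153-3p against 222 to 344, 273 CPM of miR-153-5p against 162 to 198 and 1495 CPM of miR-218-5p against 822 to 992. It was low in miR-138-2-3p, at 69.2 CPM against 118 to 132, and its ratio of miR-138-5p to miR-138-2-3p was 534 against 207 to 287. Without it no member was called in striatum.

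In naive Thap1+/- cortex, CX_DYT6KO_naive_16 held 48897 CPM of miR-128-3p against 58897 to 62624, and 9978 CPM of miR-137-3p against 5599 to 7053. CX_DYT6KO_naive_18 held 3267 CPM of miR-129-5p against 1515 to 1802, and 615 CPM of miR-218-5p against 923 to 1032. In crushed Thap1+/- cortex, CX_DYT6KO_crush_86 was low in miR-153-3p at 145 CPM against 183 to 204, and CX_DYT6KO_crush_133 had a ratio of miR-138-5p to miR-138-2-3p of 316 against 212 to 238. In crushed wild-type striatum, STR_wt_crush_2 was high in miR-153-3p (418 CPM against 239 to 282) and miR-218-5p (1182 CPM against 859 to 979), and STR_wt_crush_3 was low in miR-138-5p (25249 CPM against 29733 to 32386). CB_wt_crush_11 was low in miR-218-5p (399.6 CPM against 427 to 439).

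The crush effect in cortex differed between the genotypes by -0.88 for miR-153-3p and -0.51 for miR-218-5p on the log2 scale, by edgeR's test of the interaction. Of the 549 miRNAs tested, 13.5% passed. With 1 library left out, 0 to 5 members passed, and each of these calls was lost in at least 1 such fit.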

How the results depend on the processing

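With library totals as the only scale, calls in cortex became 5 for genotype in naive mice (from 3), 8 for crush in wild type (from 5), 0 for crush in Thap1+/- (from 1) and 6 for the interaction (from 2), and 1 for genotype after crush in cerebellum (from 2). In fits of the 2 groups alone they became 0 for genotype in naive cortex, 0 for crush in Thap1+/- cortex, and 0 for both cerebellum comparisons with calls, while the share of all miRNAs called fell to 0%, 0%, 1.2% and 1.6% (from 20.2%, 0.729%, 13.4% and 5.25%). Without CX_DYT6KO_naive_16 and CX_DYT6KO_naive_18 they became 6 for genotype in naive cortex and 5 for the interaction, and with DESeq2 the interaction gave 4. Over all miRNAs the calls without both libraries became 127 higher and 98 lower for genotype. For the interaction they became 86 positive and 121 negative, from 31 and 43. DESeq2 called 20.2% of all miRNAs for the interaction. No low-count filter gave 0 for crush in Thap1+/- cortex. Of the cerebellum calls, 1 was left for genotype after crush with RLE scaling, either change of filter, DESeq2 or without let-7 and miR-98, and 1 for crush in Thap1+/- with RLE scaling, no filter or without let-7 and miR-98. The cause was not tested.

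Leaving out 1 library gave 2 to 5 calls for genotype in naive cortex (5 without CX_DYT6KO_naive_18), 4 to 5 for crush in wild type, 0 to 1 for crush in Thap1+/-, 0 to 5 for the interaction (0 without CX_DYT6KO_naive_63), 1 to 2 for each cerebellum comparison with calls, 7 to 8 for striatum against cortex in naive wild type, 65 to 68 of 81 for regions in the other 3 combinations (from 67), and 0 to 5 arm ratios. Under library totals the direction turned for miR-128-3p in cortex, to 0.12 for genotype in naive mice, -0.0117 after crush and -0.14 for the interaction, and for miR-138-5p in cerebellum, to -0.0702 for crush in wild type. None of these 4 was called. Values of single members were followed where the log2 fold change exceeded its standard error, 179 in all, and 3540 of 3669 recomputed values kept direction and side of the threshold. Of the 3669, 1368 came from alternatives other than leaving out 1 library, and 1312 of these kept both. Called and uncalled values are pooled in these counts.

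With the column number as a replicate block between regions, the calls were 8, 8 and 9 in naive wild type and 68 of 81 in the other combinations, and miR-153-5p in striatum against cortex of crushed wild type gained a call (0.24, adjusted p = 0.0264, edgeR). Same-numbered libraries correlated over 0.1 in 46 of 70 pairs (r from -0.37 to 0.55), and 32 correlated best with their own number. In naive wild type all 5 cortex and striatum pairs and all 6 striatum and cerebellum pairs were over 0.1, with 5 of the latter best with their own number, while the cortex and cerebellum pairs there and each pair of regions in the other combinations held at least 1 lower value. Same-numbered columns of the 3 regions may come from 1 animal, which the labels do not state. Whether the numbers pair the libraries is therefore not settled. The unblocked fit was kept, which treats same-numbered libraries as independent. No paired analysis was possible within a region because the columns of its groups share no numbers. Depth limits the scarcest member, miR-129-3p, at 47 to 765 counts.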

Other observations

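Other arms of the same hairpins, described after their values were seen, add detail on single genes. miR-128-1-5p, made by Mir128-1 alone, had 343 to 594 counts per library in cortex, 120 to 287 in striatum and 6 to 29 in cerebellum, without overlap between regions. miR-128-3p exceeded it 1285 ± 170.3 times in cortex (SD, n = 23), 1915 ± 241 times in striatum (n = 24) and 12673 ± 6131 times in cerebellum (n = 24). miR-128-2-5p had 0 to 22, 0 to 15 and 0 to 12 counts, and was at 0 in 1, 2 and 11 libraries of cortex, striatum and cerebellum.

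miR-218-2-3p, made by Mir218-2 in Slit3, had 8 to 50 counts in cortex. Its log2 fold change there was 1.34 ± 0.24 (SE, adjusted p = 5.3e-04) for crush in wild type, 1.24 ± 0.24 (SE, adjusted p = 0.00398) for genotype in naive mice and -1.41 ± 0.32 (SE, adjusted p = 0.013) for the interaction by edgeR's test, the same directions as miR-218-5p. These comparisons all use the same 5 naive wild-type cortex libraries, so they are not independent.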
